A study of Mus musculus with 435 samples.

Results

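Genes of the muscle contractile apparatus were followed in mouse liver. They were taken from the probe-to-gene table of the array as every symbol beginning with Myh, Myl, Tpm, Actn or Mybpc and going on with a digit or a letter, every Tnnc, Tnni or Tnnt symbol going on with a digit, and Acta1, Acta2, Actc1, Ckm and Atp2a1. The rule matched 44 symbols, and the 40 whose probe was measured on at least 100 arrays are described here, of 13409 genes with a symbol of their own on the array. Each has 1 probe. Myh7, Myl3, Mylk2 and Myh10 were measured on fewer arrays and were not followed further. By textbook knowledge of their tissues, 23 of the 40 encode skeletal or cardiac forms, 3 smooth muscle forms (Acta2, Myh11 and Mylk), 8 non-muscle forms and 3 are tropomyosins made in both kinds of cell. The remaining 3 matched by name: Tpmt is a drug-metabolising methyltransferase, Mylip a ubiquitin ligase of the LDL receptor, and Myl10 a regulatory light chain gene given no tissue form here.

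The arrays hold liver RNA of C57 and A/J mice, 2 inbred strains, fed high-fat or low-fat food at week 0, week 1 and weeks 3 to 11, with each combination of strain, diet and week as a group. The labels give neither age nor sex, and they do not say which arrays share a mouse. Liver RNA carried Cy5 and a reference pooled from 10 tissues of C57 mice carried Cy3. Skeletal muscle made up 12% of that pool, heart 1%, and liver itself 26%. Every value below is therefore a log2 ratio of liver over the pool, centred on each array's median, so that 0 is the array's median ratio and stands for the pool only after that centring. The comparisons over weeks use 350 arrays in 36 groups over 9 weeks: 88 arrays of C57 on the high-fat diet, 87 of C57 on the low-fat diet, 87 of A/J on the high-fat diet and 88 of A/J on the low-fat diet, with 8 to 10 arrays a group.

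Week 8 was left out, because 28 of its 40 arrays correlated with the probe medians of the series below 0.15, as did 4 arrays of other weeks, which were left out too. The remaining arrays ran from 0.245 to 0.788. Arrays in use measured 2183 to 14920 probes, with a median of 11357.5. Of 13 hepatocyte genes measured on at least 100 arrays, 12 lay above the pool, with a median log2 ratio of 1.07.

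In striated muscle, myosin filaments pull on actin filaments, and the troponin complex on tropomyosin (a calcium sensor Tnnc, an inhibitor Tnni and a tropomyosin anchor Tnnt) sets when they may. Fast, slow and cardiac fibres use different genes for the same part. Smooth muscle and non-muscle cells use other myosins and actins and have no troponin, and hepatocytes, which make up most of the liver, contract only through the non-muscle forms. Smooth muscle forms in liver belong to vessel walls and to activated stellate cells.

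The promoters of 5 skeletal and cardiac members are printed because the values of these genes carry the results: Acta1, Ckm and Atp2a1 had the lowest ratios of the 40, and Tnnc1 and Myl2 moved together from array to array. Each is the stretch of 250 bases before the start in RefSeq's table (GRCm38.p6, 5′ to 3′ on the gene's strand). They lie at chr8:123894776-123895025, minus strand for Acta1, chr7:19410844-19411093, plus strand for Ckm, chr7:126463074-126463323, minus strand for Atp2a1, chr14:31208062-31208311, plus strand for Tnnc1 and chr5:122092474-122092723, plus strand for Myl2. The Atp2a1 window does not end at the gene's outermost annotated start, and part of it overlaps the gene. Capitals mark TATAAA or TATATAA, the CArG box bound by serum response factor, and CANNTG, the E-box bound by myogenic factors, on either strand.
Acta1: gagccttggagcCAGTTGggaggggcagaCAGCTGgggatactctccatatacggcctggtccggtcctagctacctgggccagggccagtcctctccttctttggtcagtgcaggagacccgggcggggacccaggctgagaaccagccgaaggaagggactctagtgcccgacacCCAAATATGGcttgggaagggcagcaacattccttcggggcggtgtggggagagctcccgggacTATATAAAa
Ckm: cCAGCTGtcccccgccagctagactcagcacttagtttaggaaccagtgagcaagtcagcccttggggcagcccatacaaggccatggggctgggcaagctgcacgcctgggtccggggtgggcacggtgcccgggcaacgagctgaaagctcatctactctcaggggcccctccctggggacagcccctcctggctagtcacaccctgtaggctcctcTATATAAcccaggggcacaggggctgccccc
Atp2a1: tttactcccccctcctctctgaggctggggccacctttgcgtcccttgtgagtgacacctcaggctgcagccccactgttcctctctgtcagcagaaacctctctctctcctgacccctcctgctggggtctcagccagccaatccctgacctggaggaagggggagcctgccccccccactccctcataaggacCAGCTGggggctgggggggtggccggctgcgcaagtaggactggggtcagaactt
Tnnc1: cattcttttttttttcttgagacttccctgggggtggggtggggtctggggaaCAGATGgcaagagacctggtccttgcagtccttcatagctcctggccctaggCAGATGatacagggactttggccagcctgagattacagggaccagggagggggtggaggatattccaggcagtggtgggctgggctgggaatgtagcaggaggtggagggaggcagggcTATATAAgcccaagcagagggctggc
Myl2: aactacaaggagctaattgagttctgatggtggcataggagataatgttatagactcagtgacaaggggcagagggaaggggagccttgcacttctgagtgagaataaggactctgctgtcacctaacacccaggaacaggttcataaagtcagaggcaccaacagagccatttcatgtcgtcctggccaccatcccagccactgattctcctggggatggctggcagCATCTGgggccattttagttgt
The CArG box stood in the windows of 3 of 20 skeletal and cardiac members with an entry (Acta1, Actc1 and Myl7), against 1.40% of 27025 genes. TATATAA, which was added to the search after these sequences had been read and can overlap TATAAA as it does in Acta1, stood in 3 of 20 (Acta1, Ckm and Tnnc1), against 3.26% of all genes. CANNTG stood in 17 of 20, against 17848 of all 27025 genes. A match is a match of letters only, and no binding was measured.

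Skeletal actin, muscle creatine kinase and the fast-fibre calcium pump lay furthest below the pool. Acta1, the actin of skeletal muscle thin filaments, had a mean log2 ratio of -2.75 ± 0.56 (SD over 36 group means) and was the 4th lowest of 7643 probes tested. Ckm, the creatine kinase that restores ATP in muscle, averaged -2.01 ± 0.63 and was the 11th lowest. Atp2a1, the pump SERCA1 that returns calcium to the sarcoplasmic reticulum of fast fibres, averaged -1.83 ± 0.54 and was the 18th lowest. All 3 were below 0 in 36 of 36 groups, while 3 of 340 arrays had Acta1 above 0, 5 of 312 had Ckm above 0 and 13 of 297 had Atp2a1 above 0. In bulk liver, fewer cells of a type and less RNA per cell cannot be told apart.

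Acta1 averaged -2.81 ± 0.46 in C57 on the high-fat diet, against -2.63 ± 0.29 in C57 on the low-fat diet (SD over 9 weekly means). It averaged -2.82 ± 0.72 in A/J on the high-fat diet, against -2.73 ± 0.73 in A/J on the low-fat diet. Over single arrays it ran from -5.55 through a median of -2.92 to 0.04 in C57 high-fat, from -5.14 through -2.62 to 0.60 in C57 low-fat, from -5.43 through -2.86 to 0.02 in A/J high-fat and from -5.15 through -2.79 to -0.19 in A/J low-fat livers. The 4 ranges overlapped almost entirely.

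Ckm averaged -2.08 ± 0.49 in C57 high-fat and -1.97 ± 0.65 in C57 low-fat livers, and -2.01 ± 0.88 in A/J high-fat and -1.99 ± 0.56 in A/J low-fat livers. Its arrays ran from -4.52 to -0.07 in C57 high-fat, from -4.91 to 0.29 in C57 low-fat, from -6.99 to 0.02 in A/J high-fat and from -6.15 to 0.62 in A/J low-fat livers, with medians of -2.11, -1.84, -1.77 and -1.84 in that order. The 4 groups overlapped. Atp2a1 averaged -2.01 ± 0.48 in C57 high-fat and -1.93 ± 0.58 in C57 low-fat livers, and -1.80 ± 0.42 in A/J high-fat and -1.59 ± 0.66 in A/J low-fat livers. Its arrays ran from -5.24 to 0.30, from -6.10 to 0.45, from -3.87 to 0.62 and from -5.60 to 0.44 in the same order of groups, and these overlapped too.

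**Figure D1:**
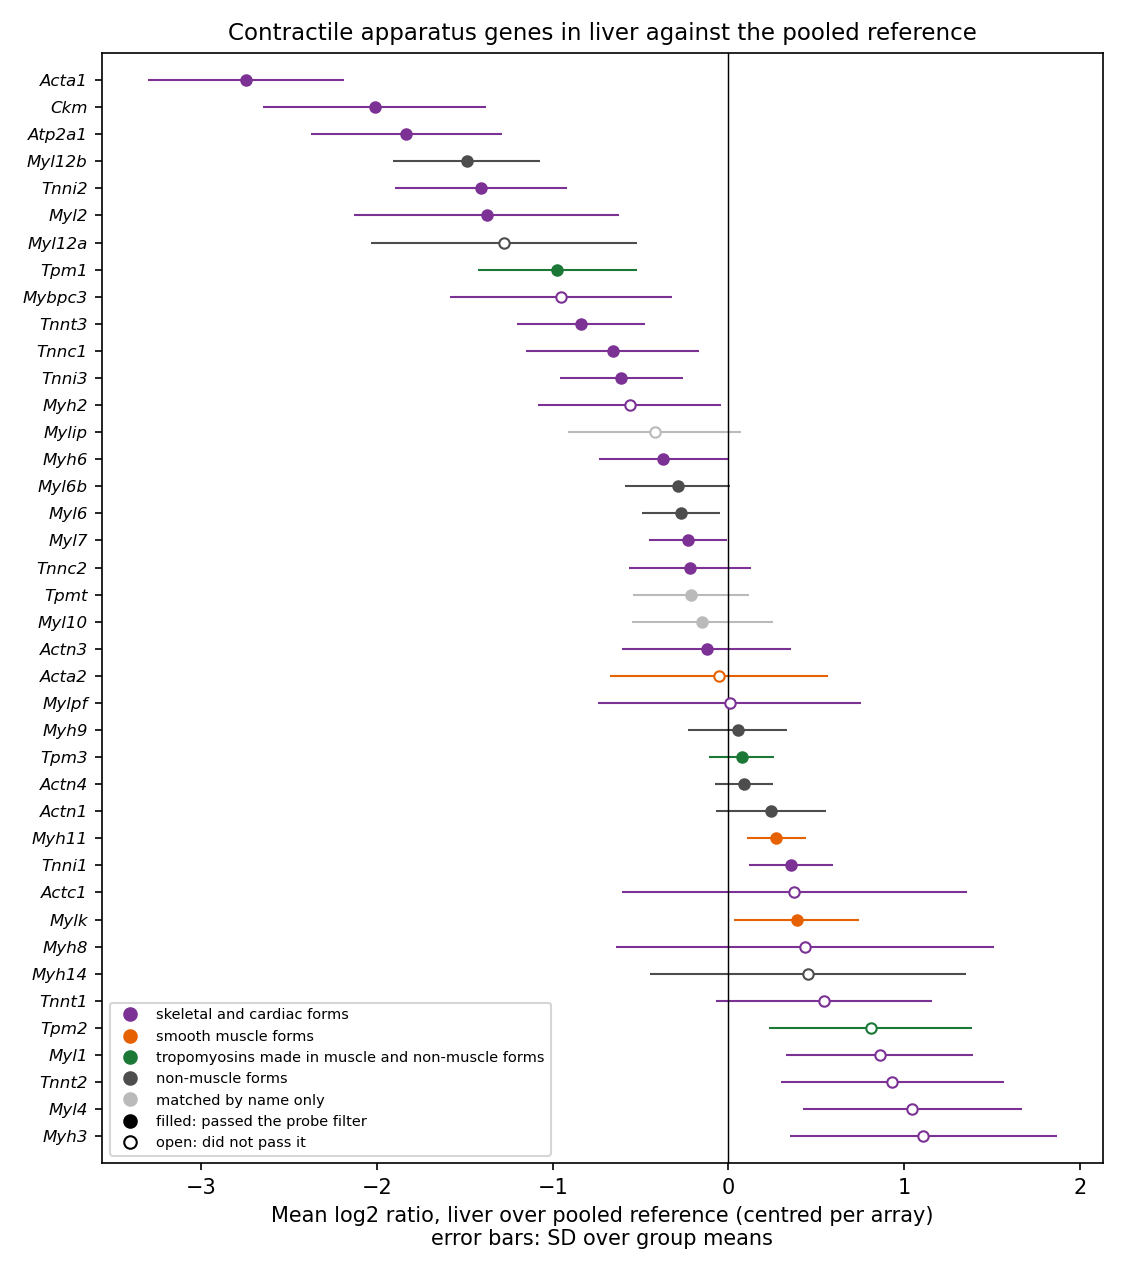
Mean log2 ratio of liver over the pooled reference for the 40 genes, lowest at the top, with the SD over group means. Filled points passed the probe filter and open points did not; colours give the class. Acta1, Ckm and Atp2a1 stand lowest at -2.75, -2.01 and -1.83, and the genes furthest above 0 (Myh3, Myl4 and Tnnt2) are open points.

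The probe filter of the comparisons (70% of arrays and 3 arrays in every group) kept 25 of the 40 genes: 13 skeletal and cardiac, 2 smooth muscle, 2 tropomyosin, 6 non-muscle and 2 matched by name. Of the 13 skeletal and cardiac forms 12 lay below the pool, with a median of -0.66, beside 59.6% of all 7643 probes and a median of -0.10. The fast troponins Tnni2 (-1.41 ± 0.49), Tnnt3 (-0.84 ± 0.36) and Tnnc2 (-0.22 ± 0.35) were all below 0. So were the slow and cardiac calcium sensor Tnnc1 (-0.66 ± 0.49), the cardiac inhibitor Tnni3 (-0.61 ± 0.35), the ventricular light chain Myl2 (-1.38 ± 0.75), the cardiac heavy chain Myh6 (-0.37 ± 0.37), the atrial light chain Myl7 (-0.23 ± 0.22) and the fast-fibre crosslinker Actn3 (-0.12 ± 0.48). The exception was the slow-fibre inhibitor Tnni1, at 0.36 ± 0.24, which was above 0 on 284 of 340 arrays. From Myh6 to Actn3 neighbouring genes differed by less than their SD over groups.

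Non-muscle forms lay on both sides of the pool. Of the 6 tested, 3 were below 0, with a median of -0.11. Myl12b, a regulatory light chain of non-muscle myosin, averaged -1.49 ± 0.42 and was below 0 in 36 of 36 groups, between Atp2a1 and Tnni2 in this order. The other light chains Myl6 (-0.27 ± 0.22) and Myl6b (-0.29 ± 0.30) were also below 0, whereas the heavy chain Myh9 (0.05 ± 0.28) and the actin crosslinkers Actn4 (0.09 ± 0.16) and Actn1 (0.24 ± 0.31) were above it. The tested smooth muscle genes were both above 0, the heavy chain Myh11 at 0.27 ± 0.17 and the light chain kinase Mylk at 0.39 ± 0.35. Tpm1 averaged -0.97 ± 0.45 and Tpm3 0.07 ± 0.19. Thus the low end of the order held a non-muscle gene among the skeletal ones, and the classes overlapped.

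The 15 genes that did not pass the filter showed a different picture, and they were measured on few arrays in some weeks. Only 5 of them lay below 0, with a median of 0.44, beside 80.9% of the 6501 probes with as many arrays that did not pass, whose median was -0.53. Among the 10 skeletal and cardiac ones 2 were below 0, namely the cardiac myosin-binding protein Mybpc3 (-0.96 ± 0.63) and the fast heavy chain Myh2 (-0.56 ± 0.52). Their median was 0.49. Of all 23 skeletal and cardiac genes, tested or not, 14 lay below 0, with a median of -0.23. Of the 14144 probes measured on at least 100 arrays or tested, 69.4% lay below 0, so the whole class was no lower than the array by this count. The 3 genes furthest above the pool were the embryonic heavy chain Myh3 (1.11 ± 0.76), the atrial and embryonic light chain Myl4 (1.05 ± 0.62) and the cardiac troponin Tnnt2 (0.93 ± 0.63).

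Myh3 averaged 1.22 ± 0.89 in C57 high-fat and 1.17 ± 0.98 in C57 low-fat livers (SD over 8 weekly means each), and 0.94 ± 0.63 in A/J high-fat (8) and 1.11 ± 0.62 in A/J low-fat livers (9). Myl4 averaged 1.10 ± 1.14 in C57 high-fat and 0.99 ± 0.41 in C57 low-fat livers, and 1.03 ± 0.42 in A/J high-fat and 1.06 ± 0.28 in A/J low-fat livers, over 8 weekly means each. Tnnt2 averaged 0.83 ± 0.63 in C57 high-fat and 1.18 ± 0.82 in C57 low-fat livers, and 0.82 ± 0.41 in A/J high-fat and 0.90 ± 0.67 in A/J low-fat livers. The groups overlapped for each of these genes.

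They were measured unevenly over the weeks. In the 15 genes the median share of arrays with a value was 35.9% at week 1, 5% at week 3, 55% at week 4, 86.8% at week 5, 44.7% at week 6, 90% at week 7, 92.1% at week 9, 66.7% at week 10 and 71.1% at week 11. Their median level was 1.14 at week 1 and 1.37 at week 4, and between -0.24 and 0.40 in the other weeks. For Myh3 the mean over groups was 2.57 at week 4, with 19 arrays measured, and 0.41 at week 9, with 35. Over the 40 genes, the number of arrays measured and the level were related by r = -0.31 (Pearson) and rho = -0.34 (Spearman), as a description of genes that share all their arrays. Which spots were left unmeasured, and why, is not stated in the sources used here, and the part of this in the high levels was not tested.

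Acta2, the smooth muscle actin that marks activated stellate cells, also missed the filter. It averaged 0.01 ± 0.38 in C57 high-fat and -0.13 ± 0.80 in C57 low-fat livers (SD over 9 weekly means), and 0.11 ± 0.22 in A/J high-fat (7 weekly means) and -0.18 ± 0.84 in A/J low-fat livers (9). Its array medians were 0.15, 0.19, 0.13 and 0.08 in that order. It was measured on 13 arrays at week 5 and on 3 at week 6, against 31 to 40 in each other week, and its means over groups were -1.25 and -0.77 in those weeks, against -0.08 to 0.29 in the others.

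No contractile gene passed the test for diet over the 9 weeks. With limma on weekly group means and Benjamini-Hochberg adjustment over 7643 probes, 0 of the 25 genes tested passed an adjusted p of 0.05 for high-fat minus low-fat in C57, where 0.196% of all probes passed, and 0 of 25 passed in A/J, where 0.0262% did. At an unadjusted p under 0.05 the counts were also 0 and 0, beside 6.32% and 5.42% of all probes. Of the 13 skeletal and cardiac genes the C57 difference was negative for 9 and the A/J difference for 10, with medians of -0.08 and -0.12, beside medians of -0.00 and -0.01 over all probes. The weekly medians had an SD of 0.19 in C57 and 0.21 in A/J, both larger than these values, and with week 8 and all arrays kept the C57 median was 0.12 over the 5 genes then tested. For Acta1 the difference was -0.18 ± 0.22 (SE) in C57 and -0.09 ± 0.22 in A/J, for Ckm it was -0.11 ± 0.18 and -0.02 ± 0.18, and for Atp2a1 it was -0.08 ± 0.22 and -0.21 ± 0.22. These errors span both directions.

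The signs of single weeks were as mixed. For Acta1 in C57, high-fat minus low-fat was negative in 5 of 9 weeks, from -1.22 at week 5 to 0.81 at week 4. In A/J it was negative in 4 of 9, from -1.44 at week 4 to 1.01 at week 1. For Atp2a1 the C57 difference was negative in 6 of 9 weeks and the A/J difference in 5 of 9. The sizes furthest from 0 over all weeks were -0.20 ± 0.11 for Tpm1 in C57 (adjusted p = 0.822) and -0.26 ± 0.18 for Actn3 in A/J (adjusted p = 0.995). In the non-muscle genes the medians were -0.02 in C57 and 0.02 in A/J. The smooth muscle genes Myh11 and Mylk had positive differences in both strains, 0.05 ± 0.07 and 0.07 ± 0.09 in C57 and 0.06 ± 0.07 and 0.12 ± 0.09 in A/J, all within 2 SE of 0.

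The diet difference in C57 was also set against that in A/J. None of the 25 genes passed, at either an adjusted or an unadjusted p under 0.05, and over all probes 0 passed the adjusted threshold while 204 had an unadjusted p under 0.05 in limma. The gene furthest from 0 was Myh6, at 0.34 ± 0.22 (0.14 in C57 and -0.20 in A/J). For Acta1 it was -0.09 ± 0.31, for Ckm -0.09 ± 0.25 and for Atp2a1 0.13 ± 0.32.

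**Figure D2:**
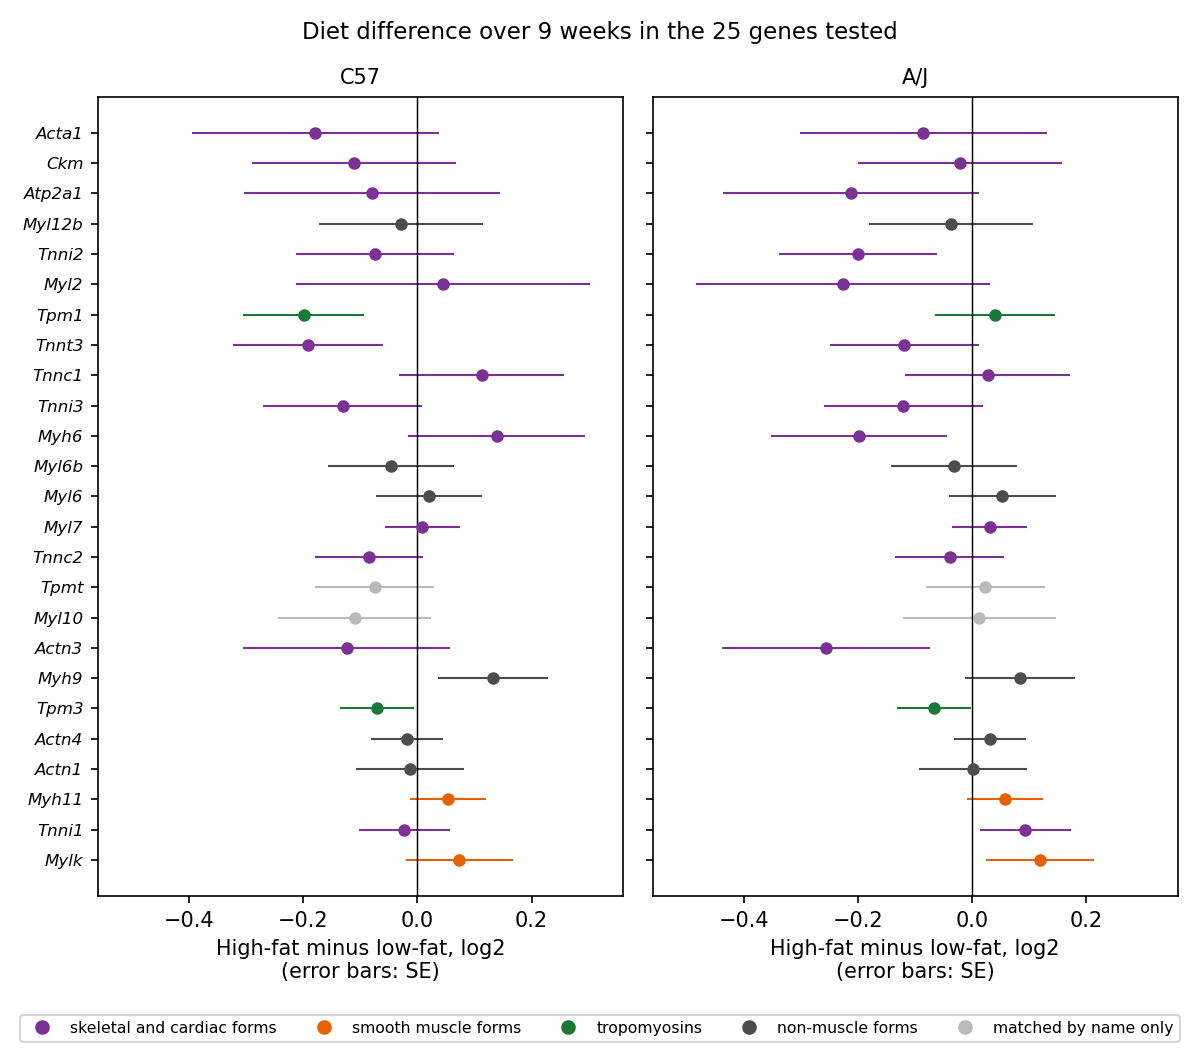
High-fat minus low-fat difference (log2, over 9 weeks) of the 25 tested genes in C57 on the left and A/J on the right, with limma SE, in the order of their level against the pool. No gene passed the adjusted threshold in either strain, and the points furthest from 0 are Tpm1 in C57 (-0.20) and Actn3 in A/J (-0.26).

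No gene passed the test between strains either. In low-fat livers 0 of 25 passed for C57 minus A/J (2.39% of all probes did), and 2 had an unadjusted p under 0.05, beside 11.7% of all probes. In high-fat livers 0 of 25 passed (3.94% of all probes did), and 6 had an unadjusted p under 0.05, beside 15.2% of all probes. Tnnc2, Myl10 and Tnni1 came nearest. Tnnc2, the fast calcium sensor, averaged -0.40 ± 0.42 in C57 and -0.10 ± 0.37 in A/J on the high-fat diet, a difference of -0.30 ± 0.10 (SE, adjusted p = 0.0739) that was negative in 7 of 9 weeks. Tnni1 averaged 0.25 ± 0.18 in C57 and 0.49 ± 0.22 in A/J on that diet, a difference of -0.24 ± 0.08 (adjusted p = 0.094) that was negative in 9 of 9 weeks. Myl10 averaged -0.38 ± 0.21 in C57 and 0.04 ± 0.33 in A/J, a difference of -0.42 ± 0.13 (adjusted p = 0.077) that was negative in 8 of 9 weeks. These counts depend on the setting: Myl10, Tnnc2 and Tnni1 passed with quantile normalization, where 5.27% of all probes passed, and Myh9 and Tpmt joined them with single arrays as replicates, where 10.5% did. On the low-fat diet the same differences were -0.26 ± 0.10 for Tnnc2, -0.12 ± 0.08 for Tnni1 and -0.30 ± 0.13 for Myl10. Acta1 (0.01 ± 0.22), Ckm (-0.07 ± 0.18) and Atp2a1 (-0.21 ± 0.22) gave no strain difference beyond their error on the high-fat diet, with 0.11 ± 0.22, 0.02 ± 0.18 and -0.35 ± 0.22 on the low-fat diet.

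A looser filter, which asked for 5 measured weeks at every combination of strain and diet, let 39 of the 40 genes be tested. None passed for diet in C57 (0.101% of 13890 probes did) or in A/J (0% did), or for C57 minus A/J on low-fat (1.02% did) or high-fat food (1.77% did), and 2, 0, 2 and 7 had an unadjusted p under 0.05, beside 4.68%, 5%, 8.9% and 11.5% of all probes in the same order. Between weeks 26 of 35 passed, beside 73.2% of probes.

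The weeks differed for most of these genes, as for most of the array. The limma F test of the week terms passed for 21 of 25, beside 86.9% of all probes, a share no higher than that of the array at large. The 4 that did not pass were Atp2a1 (adjusted p = 0.184), Myh6 (0.172), Myl6 (0.0617) and Actn3 (0.0528). Labels give no hybridisation day, so week and processing day cannot be told apart.

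Ckm averaged -1.30 at week 1, -1.24 at week 3, -1.47 at week 4, -2.81 at week 5, -2.28 at week 6, -1.98 at week 7, -2.23 at week 9, -2.56 at week 10 and -2.24 at week 11 (means of 4 groups; adjusted p = 1.77e-05). Its first 3 weeks were thus its highest. Acta1 averaged -2.64, -2.42, -2.95, -2.73, -2.37, -2.22, -2.86, -3.18 and -3.35 at the same weeks (adjusted p = 0.0271), highest at week 7 and lowest at week 11. Atp2a1 averaged -2.34, -1.70, -1.51, -2.14, -1.90, -1.58, -2.08, -1.73 and -1.52, with no such order.

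The span between the highest and the lowest week was 1.62 for Myl2, 1.45 for Tpm1, 1.34 for Tnnc1 and 1.07 for Tnni2, and under 1 for the other genes tested except Ckm and Acta1. Week 11 was the lowest for Acta1, Myl2, Tnnc1, Tnni3, Myl7, Myl12b, Myh9 and Tpmt. How many of all probes were lowest at that week was not counted, so this is no result about these genes.

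**Figure D3:**
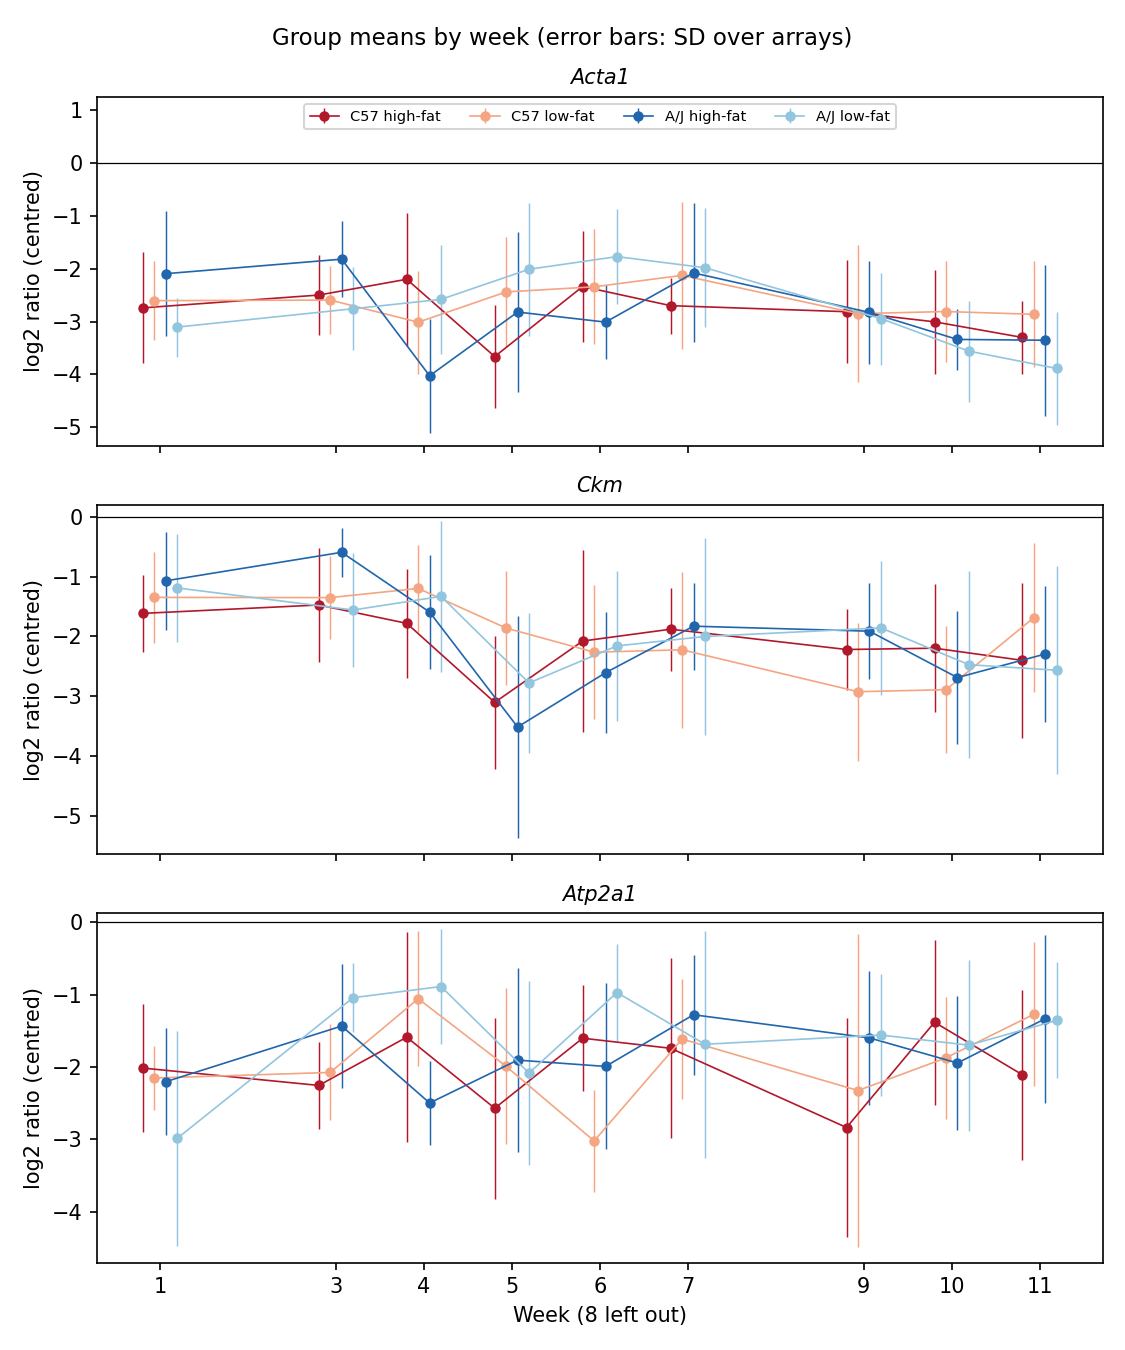
Group means of Acta1, Ckm and Atp2a1 by week (log2 ratio, SD over the arrays of a group). The 4 combinations of strain and diet interleave, every mean lies below 0, Ckm lies highest at weeks 1 to 4, and A/J high-fat Acta1 at week 4 is the lowest Acta1 mean at -4.02.

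Within single weeks, 1 diet difference passed. Over both strains and 9 weeks 650 tests of the 40 genes could be made with limma on single arrays, of which 65 (10%) had an unadjusted p under 0.05, beside 7.18% of 227612 tests over all probes. The one that passed was Atp2a1 in A/J at week 4, where 0.853% of 12312 probes passed in either direction and 0.699% were lower on the high-fat diet. In 5 of the other strain-weeks a single probe passed, none of them from these genes. For C57 the share was 0.0104% of probes at week 6, 0.00712% at week 9 and 0.00802% at week 10. For A/J the share was 0.00684% (week 9) or 0.00759% (week 11). These p-values measure the spread between arrays, which may be technical.

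The A/J low-fat arrays of that week stood apart from each other in some of these genes. Myl2 lay between -4.36 and -2.68 on arrays 30, 31, 32, 34 and 36, and between 0.22 and 1.81 on arrays 33, 35, 37, 38 and 39, while its lowest A/J high-fat array was at -1.76. Tnnc1 was split over the same arrays, at -0.89 or below on the first 5 and at 0.20 or above on the others. Actc1, Myh3, Myl1, Tnnt1, Tnnt2 and Tpm2 had low-fat values only among the second 5. The 10 low-fat arrays measured 6504 to 12456 probes each. The share of all probes without a value on the first 5 was not counted, so these gaps are no result about the genes. The labels name nothing that separates these arrays.

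In that week Atp2a1 ran from -3.41 through a median of -2.28 to -1.55 on 9 A/J high-fat arrays, against -1.85 through -0.88 to 0.26 on 6 A/J low-fat arrays (each array centred over the probes tested that week). The 2 ranges overlapped between -1.85 and -1.55. The difference was -1.59 ± 0.35 (SE, limma adjusted p = 0.0431). Leaving out 1 of the 20 arrays at a time kept the call in 8 fits and ended it in 12, with adjusted p up to 0.0828 and differences between -1.80 and -1.38. On low-fat arrays 32, 34 and 36 Atp2a1 was at 0.26, -1.19 and -0.11, and on arrays 37, 38 and 39 at -1.85, -1.47 and -0.57. Without the 5 low-fat arrays low in Myl2 the difference was -1.15 ± 0.38 (adjusted p = 0.121), and without the other 5 it was -2.05 ± 0.40 (adjusted p = 0.0154), with 3 low-fat arrays in each fit. Both were added after the data were seen, and they split the arrays by another gene of the same set. Over all probes 0.767% passed in the first fit and 1.98% in the second. The call was lost in the first and kept in the second, with equally few low-fat arrays in each. These fits are no independent check of the call, and the reason for their difference was not tested. Single arrays whose loss ended it are numbers 31, 32, 33, 34, 35, 37, 38 and 40 of the high-fat and 32, 34, 36 and 39 of the low-fat group. High-fat array 38 has no Atp2a1 value, so its loss acts only through the other probes of the fit.

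Acta1 ran from -5.40 through -4.21 to -1.70 on 10 A/J high-fat arrays, against -3.33 through -2.81 to -0.29 on 10 A/J low-fat arrays, a difference of -1.47 ± 0.44 (adjusted p = 0.0862). Of the high-fat arrays 7 lay below every low-fat array. For Ckm the difference was -0.30 ± 0.51 (adjusted p = 0.788): it averaged -1.50 ± 0.97 (SD, n = 7) on the high-fat and -1.20 ± 1.21 (n = 8) on the low-fat diet. The cardiac inhibitor Tnni3 had a difference of -0.81 ± 0.33 (adjusted p = 0.172) and the fast troponin Tnnt3 one in the other direction, 1.05 ± 0.33 (adjusted p = 0.108). Many probes differed in this week: 2354 of 12312 had an unadjusted p under 0.05 in limma. In the other strain-weeks this number ran from 494 (C57 at week 3) to 1177 (A/J at week 6). Over the 20 skeletal and cardiac genes tested in that week the median was -0.10, with 12 negative, and over 31 other striated muscle genes -0.06, with 17 negative and 0 called. Hepatocyte genes had a median of -0.15 (8 of 13 negative), genes of stellate and smooth muscle cells -0.19 (6 of 9) and genes of the other reference tissues -0.10 (10 of 17), each with 0 called. The non-muscle forms had a median of -0.22 (5 of 7 negative, 0 called), and Myl6 averaged -0.71 ± 0.40 on 10 high-fat arrays, against -0.04 ± 0.41 on 9 low-fat arrays (difference -0.67, adjusted p = 0.0862). High-fat arrays measured a median of 11302.5 probes and low-fat arrays 10648.5. Their part in the Atp2a1 difference was not tested.

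**Figure D4:**
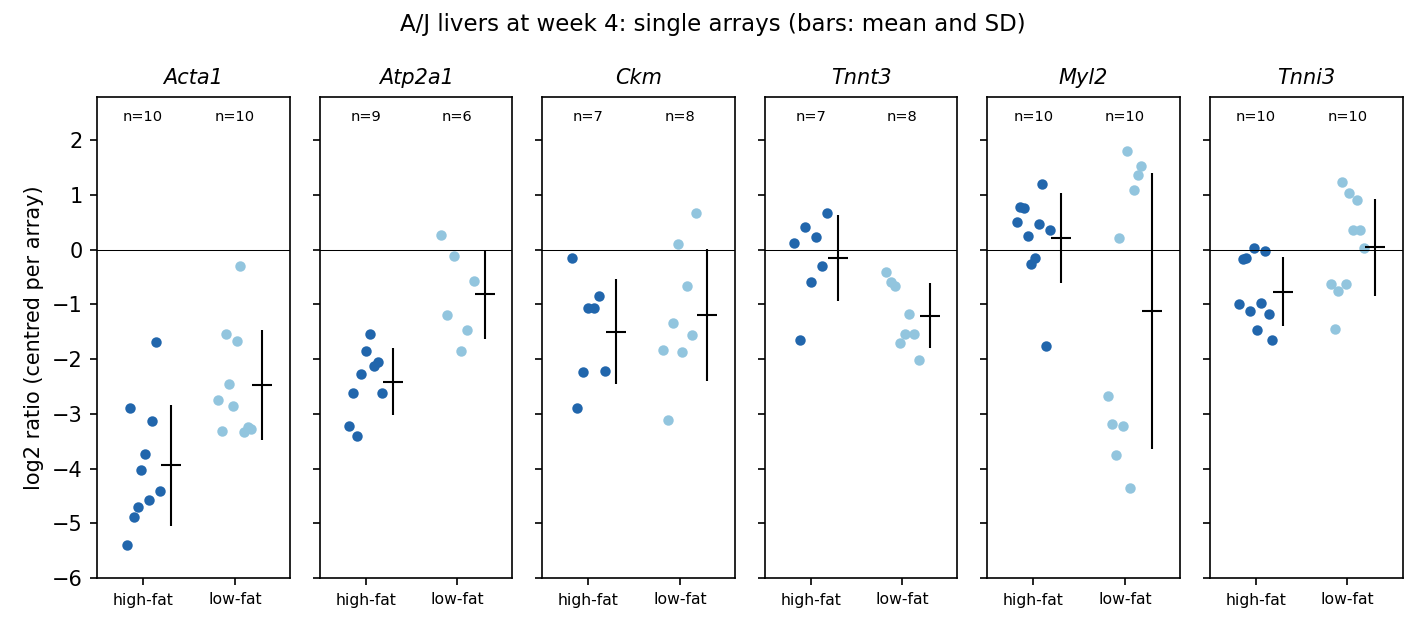
Single arrays of A/J livers at week 4 for 6 genes (log2 ratio centred per array), high-fat left of low-fat, with the mean and SD and the number of arrays measured. Atp2a1 and Acta1 lie lower on the high-fat diet (means -2.41 against -0.82 and -3.94 against -2.47), Ckm averages -1.50 against -1.20, and the low-fat arrays of Myl2 lie between -4.36 and -2.68 or between 0.22 and 1.81.

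Some pairs of contractile genes deviated together from array to array, while most did not. Each array's deviation from its own group's mean was taken, so that strain, diet and week are removed, and correlated between pairs of genes. Ckm and Atp2a1 had a Pearson r of 0.58 (273 arrays), Acta1 and Atp2a1 0.45 (294) and Acta1 and Ckm 0.33 (306). Among the fast troponins Tnni2 and Tnnt3 had an r of 0.56 (299) and Tnnc2 and Tnni2 0.40 (304), with Tpm1 at 0.33 to Tnni2 and 0.32 to Tnnc2. Among genes of heart and slow fibres Myl2 and Tnnc1 had an r of 0.58 (265), Tnnc1 and Tnni3 0.51 (283), Myl2 and Tnni3 0.43 (292) and Myh6 and Tnnc1 0.39 (260).

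In all 4 combinations of strain and diet these correlations were positive, from 0.52 to 0.66 for Myl2 with Tnnc1, from 0.54 to 0.66 for Ckm with Atp2a1 and from 0.48 to 0.62 for Tnni2 with Tnnt3. Over all pairs of the 7643 probes the median r was -0.00 and the 95th percentile 0.28. Above that percentile were 25 of 300 pairs of the tested genes (8.33%), and 11 of 78 pairs of skeletal and cardiac genes, whose median was 0.07. Acta1 had an r of -0.04 with Myl2 (292 arrays) and -0.03 with Tnnc1 (282). The points of a pair share the array, its reference and its centring, so these values are a description, and depth per spot was not tested.

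Tnni1, the gene above the pool, went with other genes. Its r was 0.52 with Mylk (323 arrays), 0.47 with Actn1 (324), 0.40 with Myl10 and -0.26 with Ckm. Myh11 and Myh9, the smooth and non-muscle heavy chains, had an r of 0.40 (332), and the non-muscle light chains Myl12b and Myl6 one of 0.30 (315). The lowest was Actn4 with Tnnc1, at -0.34.

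**Figure D5:**
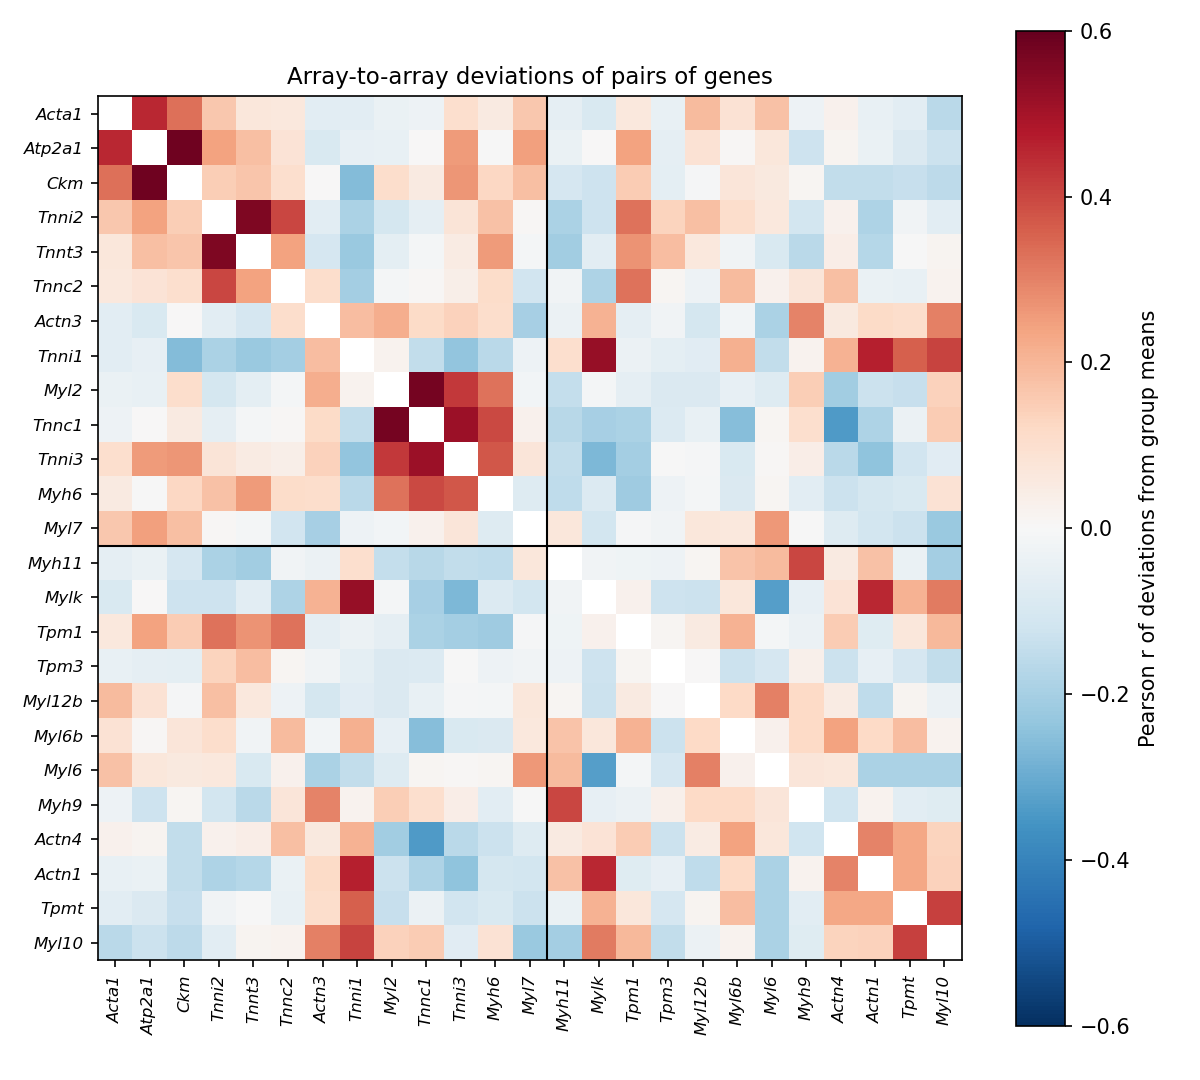
Pearson r of array deviations from group means for each pair of the 25 genes, with skeletal and cardiac genes before the line and all others after it; their order was chosen after the values were seen. Red blocks hold Acta1, Atp2a1 and Ckm, then Tnni2, Tnnt3 and Tnnc2, then Myl2, Tnnc1, Tnni3 and Myh6.

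A list of other striated muscle genes was read in the same way. Of 41 genes listed for sarcomere, triad and muscle metabolism, 34 were measured on at least 100 arrays, and 23 of these lay below the pool, with a median of -0.27, a share close to the 69.4% of all 14144 probes with as many arrays. The lowest were Jph1 (-1.94), which ties the triad membranes together, the calcium release channel Ryr1 (-1.71), the calcium store Casq1 (-1.44) and the Z-disc protein Myoz1 (-1.40). The 4 highest of the 11 above the pool were Fhl1 (1.35), the calcium buffer Pvalb (1.14), Cav3 (1.00) and Itgb1bp2 (0.65). For diet 0 of the 18 tested passed in either strain, and the difference was negative for 4 genes in C57 (median 0.05) and for 10 in A/J (median -0.05). Between strains 1 of the 18 passed, the giant sarcomere spring Ttn, beside 2.39% of all probes on the low-fat and 3.94% on the high-fat diet. Ttn was higher in C57 than in A/J by 0.45 on the low-fat diet (limma adjusted p = 0.0186). On the high-fat diet it was higher by 0.55 (limma adjusted p = 0.00197). A single gene of 18 is no result about the list.

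At week 0, when the labels already give a diet, the skeletal and cardiac genes were measured on 1 to 36 of 39 arrays, with Tnni1 on 36, Tnni3 on 35 and Ckm on 3. Acta1 had a value on 5 of 10 C57 high-fat arrays (median -4.05), 4 of 10 C57 low-fat arrays (-3.78), 3 of 10 A/J high-fat arrays (-3.57) and 4 of 9 A/J low-fat arrays (-2.66). Acta2 was measured on 38 of 39 arrays and had medians of 0.34, 0.21, 0.24 and 0.03 in the same order. No gene passed for diet in C57 or A/J (0% of probes passed in either), and 0 of 20 passed for C57 minus A/J, where 1.35% of 5414 probes did and 3 of the 20 had an unadjusted p under 0.05, beside 12.4% of probes. The median array of week 0 measured 5007 probes.

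At week 8 the 28 arrays unlike the rest of the series differed in both directions: of 21 skeletal and cardiac genes measured in both sets of arrays, 12 had a higher median on the 28 and 9 a lower one. Acta1 ran from -0.71 through a median of 0.10 to 0.87 on all 28 of them, against -5.77 through -3.52 to -1.20 on 10 of the other 12 arrays of that week, with no overlap. Ckm had a median of 0.60 on 27 of them, against -1.53 on 8 of the others. Myl2 had a median of 0.06 on 28, against -1.35 on 8. Lower on the unlike arrays were Myl4, with a median of -0.20 on 24 against 0.79 on 11, and Tnnc1, with -1.28 on 11 against -0.71 on 11. Atp2a1 had no value on any of the 28 and a median of -0.73 on 5 of the others. This is a description of arrays chosen for their low correlation with the probe medians of the series. Acta1 was among the lowest probes of the series, so a difference in it can follow from that choice. The share of all probes that differ, or do not overlap, between these sets of arrays was not counted.

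The probes whose group means went most like the mean of the 13 tested skeletal and cardiac genes were Il12rb1 (r = 0.75), Slc1a5 (0.74), Cst11 (0.71), Pcdhb15 (0.70), Spink1 (0.70), Prss8 (0.70), Lpl (0.69) and Rasa3 (0.69), over 36 groups and among 6752 probes with a symbol outside the rule. All 8 lay below the pool, from -2.84 for Spink1 to -0.74 for Cst11. Strain, diet and week were left in these group means, and 86.9% of all probes passed the test between weeks. Such likeness therefore cannot be told apart from a shared course over weeks or processing days. The spread of r over the other probes is not given.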

How the data were processed

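Liver RNA (Cy5) was hybridised against a pooled reference (Cy3), per the labels' protocols. The values the authors deposited are linear liver-over-pool ratios, treated here as a score because 0.251% are below 0. From the values, the mean of every array is 1 and larger values mean more liver signal; background subtraction, spot filter and normalization are not given in the sources used here. Files hold no signal intensities, so the depth behind a ratio is unknown and the number of arrays limits the precision. Of all cells 42.4% are empty.

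From the deposited ratios the log2 of positive values was taken, with no pseudocount, values at or below 0 counted as not measured, and each array centred on its median over the probes tested. Identical columns (2 pairs) were counted once, leaving 433 of 435 arrays. Arrays with a correlation below 0.15 to the probe medians, and week 8, were left out. Symbols came from the platform's gene table, updated for 14416 probes through the Entrez identifier to GRCm38.p6, which also supplied promoters for 36 of the 40 genes; the array's own build is not stated.

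Group means were fitted with limma 3.58.1 (R 4.3.3), using 4 strain-by-diet levels and a week factor, so the week is the unit of replication; probes needed 70% of arrays and 3 arrays in every group. Single weeks and week 0 were fitted on single arrays. P-values were adjusted by Benjamini-Hochberg across every probe in the fit, with 0.05 as threshold. The code was tested on simulated data. The genes, classes and lists were chosen with earlier results of these data known. Full group values are given for genes that passed in a contrast of diet or strain, for Acta1, Ckm, Atp2a1 and Acta2, and for the 3 lowest and 3 highest genes against the pool; likeness names the 8 best probes. Nothing says that arrays of a group are separate mice, so p-values may measure technical spread. Alternatives covered centring, quantile normalization, probe filters, values at or below 0, group medians, arrays left out, single arrays, pairing by sample number and leaving out weeks or arrays.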

Additional observations from a re-analysis of the deposited data

Results flagged for a closer look

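Of 64 sets of weekly or array values examined, 3 held a value far from the others by Dixon's criterion at the 95% level, and chance alone gives about 1 in 20. Acta2 in C57 low-fat livers was at -1.99 at week 6, against -0.67 to 0.66 in its other 8 weeks, and this mean rests on 1 array. Acta2 in A/J low-fat livers was at -2.39 at week 5, against -0.10 to 0.27 in its other weeks, again from 1 array. Myl4 in C57 high-fat livers was at 3.70 at week 4, against -0.10 to 1.44 in its other weeks, from 4 arrays. No gene had diet differences of opposite sign in the 2 strains in every week.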

How the results depend on the processing

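Of 176 summary values recomputed under alternatives (members called in each comparison, class medians), 163 kept their direction and their side of the threshold. For C57 minus A/J on the high-fat diet, where 0 genes were called, 2 were called with no centring (3.41% of all probes passed), 3 with quantile normalization (5.27%), 1 with values at or below 0 set to the lowest positive ratio (3.59%), 1 with group medians (3.43%), 5 with single arrays as replicates (Myh9, Myl10, Tnnc2, Tnni1 and Tpmt; 10.5%) and 0 to 2 with 1 week left out (1 without week 1, 2 without week 6 and 1 without week 10; 3% to 3.64%). With 1 week left out, Myl10 was between -0.51 and -0.39, Tnni1 between -0.26 and -0.20 and Tnnc2 between -0.38 and -0.22. With week 8 and all arrays kept, 9 of the 9 genes then testable differed between weeks, fewer being tested, beside 85.6% of 2869 probes. The median diet difference of the skeletal and cardiac genes in C57 then became 0.12 over 5 genes. The call of Atp2a1 in A/J at week 4 was lost with quantile normalization (0 genes called, -1.33, limma adjusted p = 0.104). Over all probes 0.301% then passed in that week, against 0.853% in the main fit. Over 159 pairs of arrays with the same sample number, r of their deviations ran from -0.57 to 0.46, with a median of 0.01 and 44 pairs over 0.1. The number runs on within each strain and diet and does not start alike in every group of a week. Equal numbers therefore need not mark a pair, and pairing is not excluded. With the sample number as a replicate block 1 gene (Myl10) was called for C57 minus A/J on the high-fat diet (2.43% of all probes). In the weeks of A/J 0 genes were called (Atp2a1 at week 4 at -1.43, limma adjusted p = 0.168). At week 4 of A/J 0.0164% of all probes passed with this block. The cause of these changes was not tested. Signal over background is not in the files, which limits what can be said of genes with few measured arrays.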
